A study of Mus musculus with 6 samples.

Results

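A set of 10 genes that pattern the mesenchyme of the tooth was followed through RNA sequencing of the mouse incisor, its members taken by gene symbol from the table. They were the homeobox genes Msx1, Msx2, Barx1, Lhx6, Lhx8, Prrx1 and Prrx2, the paired box gene Pax9, the basic helix-loop-helix gene Twist1 and the AP-2 gene Tfap2b. Of these 10 genes, 9 were measured among the 23718 genes of the table, and Tfap2b was not analysed here. The incisor of the mouse grows throughout life, and its mesenchyme is renewed by mesenchymal stem cells (MSCs) that produce transit amplifying cells (TACs), the dividing precursors of pulp cells and dentin-forming odontoblasts. The 3 MSC samples came from Gli1-CreER;tdT mice and the 3 TAC samples from Axin2-CreER;tdT mice, all 1 month old and given tamoxifen shortly before collection. The strain was C57BL/6 by the labels, while the methods of the study speak of a mixed background. In these animals the Gli1 or the Axin2 driver switches on the red reporter tdTomato, and labelled cells were cut from frozen sections with a laser, so a sample is a small piece of tissue whose limits were set by the reporter. The groups differ in driver line as well as in region, and these cannot be told apart.

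Teeth form by an exchange of signals between an epithelium and a mesenchyme that descends from cranial neural crest. BMP and FGF ligands from the epithelium switch on transcription factors in the mesenchyme, among them MSX1 and PAX9, and these maintain mesenchymal BMP4, which signals back. The same factors divide the jaw into fields: BARX1 is known from molar mesenchyme, LHX6 and LHX8 from the oral side of the jaw, and MSX1 and MSX2 from the incisor field.

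The comparison asks how this set of factors is distributed between stem cells and their dividing progeny. Values are normalized read numbers as deposited, that is, reads scaled per library without division by gene length, so they compare libraries for 1 gene and not genes with each other. Libraries held 20203159 to 108156380 estimated reads. Replicate 3 of both groups stood apart from replicates 1 and 2: mitochondrial ribosomal RNA took 8.28% to 9.07% of estimated reads in replicates 1 and 2 and 0.112% to 0.236% in replicate 3, and genes without a read were 6.89% to 8.36% of the list against 28.3% to 43.1%. The difference of each patterning gene is therefore also given within replicates 1 and 2 and within replicate 3, where 1 library per group allows no test. The captured tissue was checked by its markers. Mesenchymal transcripts were abundant in every library, with the collagen gene Col1a1 at 1554 or more. HOX genes, which are silent in the neural crest of the jaw, were low: the 6 analysed here summed to 3.36 to 3.87 in MSC and to 0.0265 to 0.898 in TAC, with none past the filter for testing. The driver genes, used to choose the regions, overlapped between groups, with means of 308 in MSC and 230 in TAC for Gli1 and of 39.4 and 51.6 for Axin2.

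The homeobox genes Msx2 and Msx1 had more transcript in every TAC library than in any MSC library, with means 2.78 and 1.54 times as high. Lhx8, Pax9 and Prrx1 had more in every MSC library, with means 3.29, 2.70 and 1.84 times as high, and Barx1, Lhx6, Prrx2 and Twist1 had overlapping groups. In bulk samples, fewer cells of a type and less RNA per cell cannot be told apart. Groups were thus separate for 5 of the 9 genes, where 24.5% of the 15391 genes tested had groups that did not overlap. The 2 higher in TAC were Msx1 and Msx2, against 12.3% of all genes in that direction, and the 3 higher in MSC were Pax9, Lhx8 and Prrx1, against 12.2%. None passed limma's test at an adjusted p-value of 0.05 in the fit across all genes, a level that 0.422% of genes reached (0.039% higher in TAC and 0.383% higher in MSC). At an unadjusted p-value of 0.05, 4 of the 9 passed (Msx2, Lhx8, Pax9 and Prrx1), and 11.9% of all genes did. Of the 4, Msx2 was higher in TAC, beside 5.42% of all genes, and 3 were higher in MSC, beside 6.43%. A log2 fold change of at least 1 in size was found for 4 of the 9 (Msx2, Pax9, Lhx8 and Twist1) and for 22.1% of all genes. On estimated reads, limma voom called 0 of the 9 after adjustment, beside 0.039% of all genes, and 5 before it, beside 15%. With the replicate number as a block, Pax9 passed, at an adjusted p-value of 0.0442, where 1.49% of all genes passed. Without MSC replicate 3, Msx2 and Lhx8 passed, at 0.0393 and 0.0389, where 1.9% of all genes did. With replicate 3 as a batch term, 4 of the 9 passed (Msx2, Pax9, Lhx8 and Prrx1), beside 11.8% of all genes, and on replicates 1 and 2 alone 8 of the 9 passed, 2 higher in TAC and 6 in MSC, beside 44.2%. Barx1 is among the 6, and it had entered the test through these same MSC libraries.

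**Figure D1:**
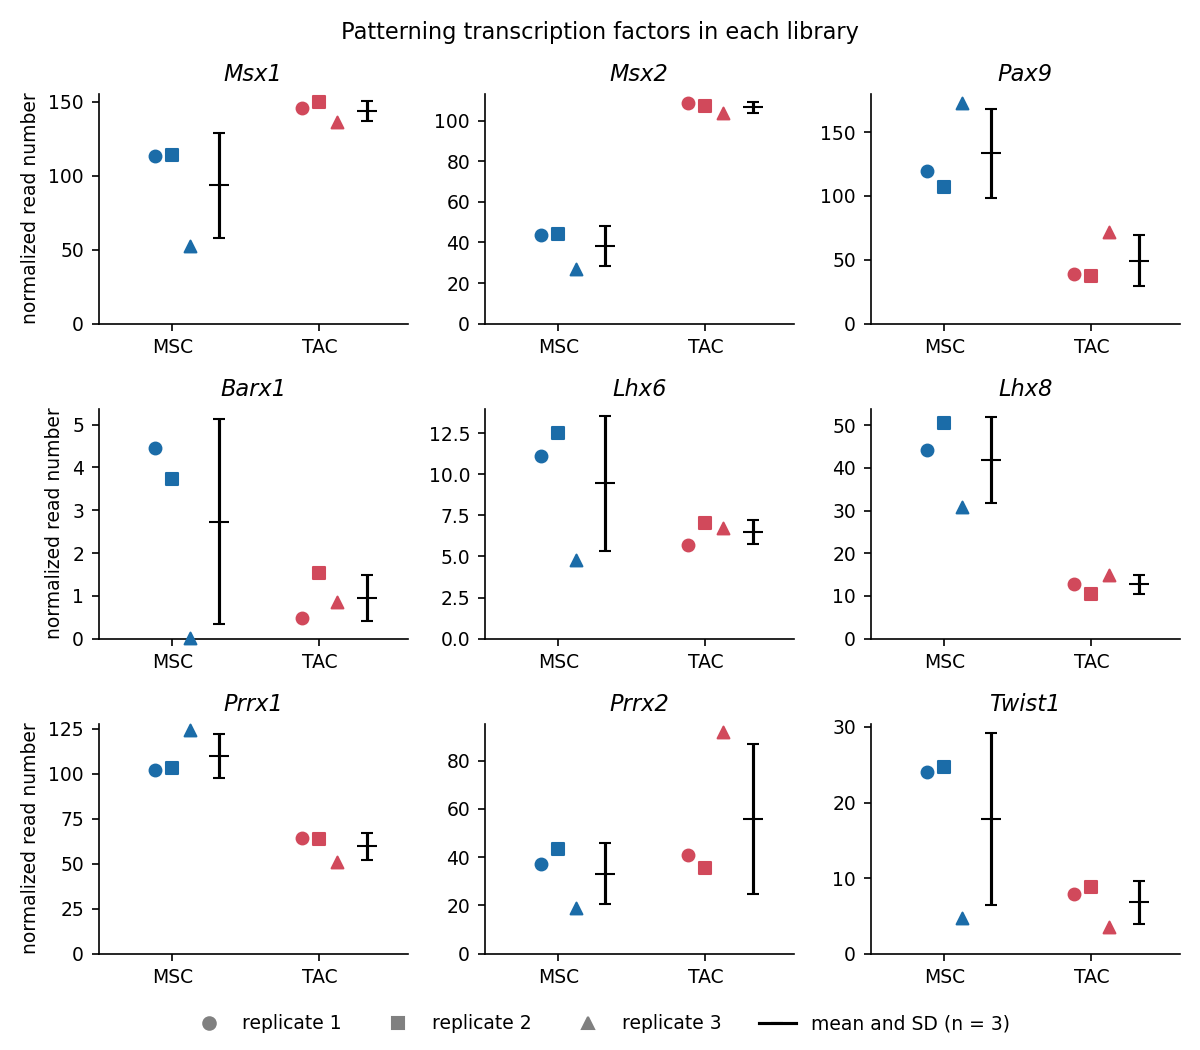
Normalized read number (vertical axis, as deposited) of each patterning gene in the 3 MSC and 3 TAC libraries, with a marker per replicate and the mean with its SD beside them; each panel has its own scale. Msx1 and Msx2 are higher in every TAC library, Pax9, Lhx8 and Prrx1 in every MSC library, and for Barx1, Lhx6, Prrx2 and Twist1 the groups overlap.

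Msx1 and Msx2 encode homeodomain repressors that respond to BMP signals. Msx2 (chr13:53466884-53473074 on the minus strand) stood at 43.6, 44.3 and 26.9 in MSC, against 109, 107 and 104 in TAC, given here and below in the order of replicates 1, 2 and 3. The TAC libraries were close to each other and all above the highest MSC library, and MSC replicate 3 was the lowest of the 6. MSC averaged 38.3 ± 9.84 and TAC 107 ± 2.74 (SD, n = 3 each), 2.78 times as much. The log2 fold change of value + 1, TAC minus MSC throughout, was 1.49 (SE 0.29, 95% interval 0.81 to 2.16, limma adjusted p 0.106). Replicates 1 and 2 gave 1.28 and replicate 3 gave 1.90, the same direction in both library sets.

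The paralog Msx1 (chr5:37820485-37824583 on the minus strand) stood at 114, 114 and 52.8 in MSC, against 146, 150 and 136 in TAC. The groups did not overlap, and MSC replicate 3 was far below the other MSC libraries. The means were 93.4 ± 35.2 (SD, n = 3) and 144 ± 6.91 (SD, n = 3), a ratio of 1.54. Its change on the log2 scale was 0.70 (SE 0.36, 95% interval -0.15 to 1.54, adjusted p 0.509). Within replicates 1 and 2 it was 0.37, with an SE of 0.05 and an adjusted p of 0.000379, and within replicate 3 it was 1.35. That fit on replicates 1 and 2 rests on pairs of libraries that were nearly alike, and it called 44.2% of all genes.

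Pax9 encodes a paired domain factor that acts with MSX1 in tooth mesenchyme and whose loss stops tooth formation. Pax9 (chr12:56691767-56712822 on the plus strand) stood at 120, 107 and 173 in MSC, against 38.8, 37.1 and 72.1 in TAC. Replicate 3 was the highest library of each group, and the lowest MSC library still exceeded the highest TAC library. MSC averaged 133 ± 34.9 and TAC 49.3 ± 19.7 (SD, n = 3 each), so that MSC held 2.70 times as much. On the log2 scale the change was -1.45 (SE 0.36, 95% interval -2.29 to -0.62, adjusted p 0.170). With the replicate block the SE was 0.14, while replicates 1 and 2 gave -1.55 and replicate 3 gave -1.25. Msx1 and Pax9, a pair with shared duties in the tooth bud, thus lay on opposite sides of this comparison.

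Lhx8 and Lhx6 encode LIM homeodomain factors of the oral jaw mesenchyme. Lhx8 (chr3:154306294-154330659 on the minus strand) stood at 44.2, 50.4 and 30.7 in MSC, against 12.8, 10.5 and 14.9 in TAC. Every MSC library held at least 2.07 times the level of the TAC library with its number. The means were 41.8 ± 10.05 (SD, n = 3) and 12.7 ± 2.21 (SD, n = 3), a ratio of 3.29, the largest among the 5 genes without overlap. The log2 fold change came to -1.63 (SE 0.32, 95% interval -2.38 to -0.87, adjusted p 0.110). The library sets gave -1.94 (replicates 1 and 2) and -0.999 (replicate 3). Lhx6 (chr2:36081953-36105408 on the minus strand) stood at 11.1, 12.5 and 4.76 in MSC, against 5.67, 7.03 and 6.73 in TAC. MSC replicate 3 was the lowest of all 6 libraries, so the groups overlapped. The fitted change was -0.39 (SE 0.49, 95% interval -1.54 to 0.75, adjusted p 0.820). Its direction differed between the library sets, at -0.80 (replicates 1 and 2) and 0.43 (replicate 3).

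The paired-related homeobox genes Prrx1 and Prrx2 mark limb and craniofacial mesenchyme and act together in the growth of the lower jaw and incisor. Prrx1 (chr1:163245119-163313710 on the minus strand) stood at 102, 103 and 124 in MSC, against 64.2, 63.8 and 50.9 in TAC. The groups did not overlap, and replicate 3 gave the highest MSC and the lowest TAC value. The means were 109.9 ± 12.4 (SD, n = 3) and 59.6 ± 7.59 (SD, n = 3), a ratio of 1.84, and the log2 fold change was -0.87 (SE 0.25, 95% interval -1.47 to -0.28, adjusted p 0.231). Replicates 1 and 2 gave -0.67 and replicate 3 gave -1.27. Prrx2 (chr2:30834972-30881251 on the plus strand) stood at 37.3, 43.2 and 18.8 in MSC, against 40.8, 35.5 and 91.7 in TAC. Replicates 1 and 2 of the groups were interleaved, and the spread came from replicate 3, which was the lowest MSC and the highest TAC library. The log2 fold change of 0.69 (SE 0.47, 95% interval -0.42 to 1.80, adjusted p 0.634) came with -0.08 from replicates 1 and 2 and 2.23 from replicate 3.

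Twist1 encodes a basic helix-loop-helix factor needed by cranial neural crest mesenchyme, which binds DNA with E proteins as partners. Twist1 (chr12:33957671-33959829 on the plus strand) stood at 24.1, 24.7 and 4.73 in MSC, against 7.95, 8.82 and 3.58 in TAC. Each MSC library was higher than the TAC library with its number, yet MSC replicate 3 fell below TAC replicates 1 and 2. The means were 17.8 ± 11.3 (SD, n = 3) and 6.78 ± 2.81 (SD, n = 3), and the log2 fold change was -1.06 (SE 0.69, 95% interval -2.68 to 0.55, adjusted p 0.610). The library sets gave -1.44 (replicates 1 and 2) and -0.32 (replicate 3).

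Barx1, the molar and stomach homeobox gene, was the lowest of the set per length in TAC and had no read in MSC replicate 3. It (chr13:48662998-48666507 on the plus strand) had 166, 128 and 0 estimated reads in MSC, against 21, 63 and 225 in TAC. A count of 0 allows up to 3 reads, a value of 0.0266 in MSC replicate 3, so the gene was not detectable there at a depth of 59793645 estimated reads. Normalized values of the other MSC libraries were 4.45 and 3.74, and those of TAC were 0.482, 1.53 and 0.857. The fitted change was -0.63 (SE 0.76, 95% interval -2.41 to 1.15, adjusted p 0.812). Its direction differed between the library sets, at -1.39 (replicates 1 and 2) and 0.88 (replicate 3), and limma voom on estimated reads gave 2.76. Its mean in TAC, 0.958, lay under the mean of 1 required for testing, so it entered the test through MSC replicates 1 and 2.

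**Figure D2:**
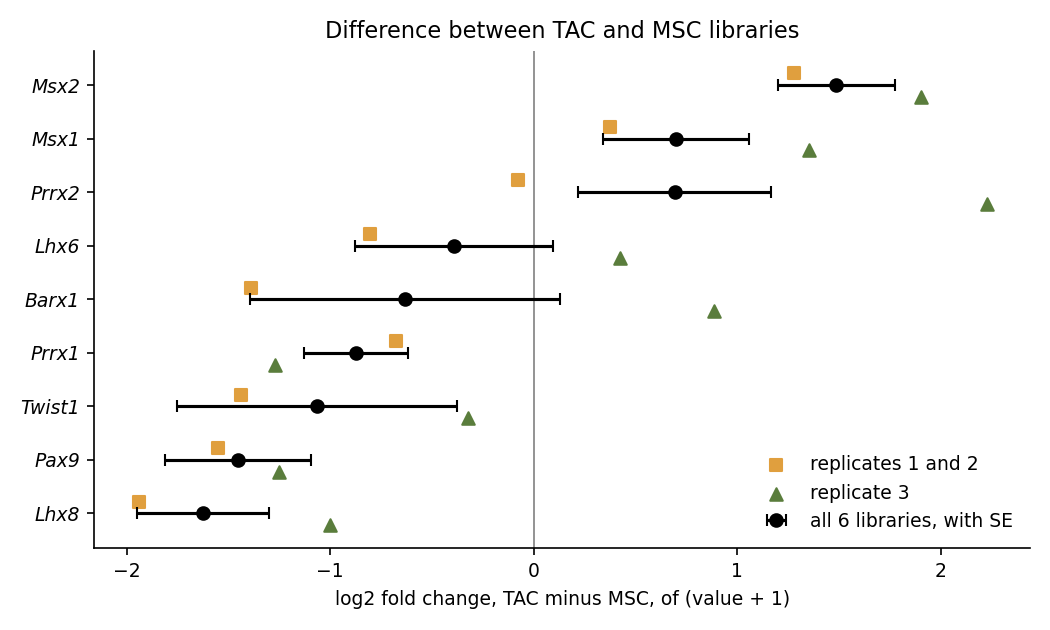
Log2 fold change of (value + 1), TAC minus MSC (horizontal axis), for each patterning gene: black points with SE use all 6 libraries, squares replicates 1 and 2, triangles replicate 3. The squares and triangles lie on the same side of 0 for Msx2, Msx1, Prrx1, Twist1, Pax9 and Lhx8 and on opposite sides for Prrx2, Lhx6 and Barx1.

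Both library sets gave 1 direction for 6 of the 9 genes, which held for 61.2% of all genes. The median log2 fold change of the 9 was -0.63, that of Barx1, beside 0.03 over all genes tested, with 3 members above 0 and 6 below. The library sets disagreed in the sign of this median, with -0.803 from replicates 1 and 2 against 0.425 from replicate 3. Over all genes tested the matching medians were -0.0458 and 0.0424. The set as a whole thus had no direction shared by both library sets.

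The promoters of the 5 genes whose groups did not overlap are shown from RefSeq (build GRCm38.p6, the assembly of mm10), to set the sequence around their start sites beside the opposite directions of the MSX genes and the others. Each runs from 250 bases before the start site to 50 bases from it. Capitals mark the homeodomain core TAATTA and the CCAAT box, searched on both strands, where the reverse complement of CCAAT reads ATTGG.
Msx1 chr5:37824536-37824835, minus strand: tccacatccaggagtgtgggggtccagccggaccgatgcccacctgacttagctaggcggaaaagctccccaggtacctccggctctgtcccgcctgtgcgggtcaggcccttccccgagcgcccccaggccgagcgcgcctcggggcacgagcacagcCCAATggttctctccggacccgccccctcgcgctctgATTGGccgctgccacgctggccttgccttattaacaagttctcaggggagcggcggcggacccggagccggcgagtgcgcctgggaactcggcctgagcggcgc
Msx2 chr13:53472731-53473030, minus strand: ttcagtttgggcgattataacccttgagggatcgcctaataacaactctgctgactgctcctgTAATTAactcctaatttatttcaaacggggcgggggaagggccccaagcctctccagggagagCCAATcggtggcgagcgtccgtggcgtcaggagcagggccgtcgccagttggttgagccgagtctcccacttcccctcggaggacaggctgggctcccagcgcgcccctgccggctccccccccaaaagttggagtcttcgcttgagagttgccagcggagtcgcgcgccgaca
Lhx8 chr3:154330511-154330810, minus strand: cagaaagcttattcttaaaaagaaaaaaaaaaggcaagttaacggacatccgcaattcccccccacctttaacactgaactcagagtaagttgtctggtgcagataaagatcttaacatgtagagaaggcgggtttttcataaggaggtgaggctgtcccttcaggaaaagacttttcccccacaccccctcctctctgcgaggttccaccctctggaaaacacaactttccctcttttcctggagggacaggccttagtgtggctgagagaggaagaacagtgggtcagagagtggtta
Pax9 chr12:56695221-56695520, plus strand: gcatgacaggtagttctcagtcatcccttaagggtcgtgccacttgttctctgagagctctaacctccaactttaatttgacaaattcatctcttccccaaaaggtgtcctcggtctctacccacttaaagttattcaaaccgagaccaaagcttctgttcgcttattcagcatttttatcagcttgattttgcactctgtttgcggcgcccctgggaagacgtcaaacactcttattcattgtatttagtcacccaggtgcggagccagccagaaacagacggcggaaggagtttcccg
Prrx1 chr1:163313601-163313900, minus strand: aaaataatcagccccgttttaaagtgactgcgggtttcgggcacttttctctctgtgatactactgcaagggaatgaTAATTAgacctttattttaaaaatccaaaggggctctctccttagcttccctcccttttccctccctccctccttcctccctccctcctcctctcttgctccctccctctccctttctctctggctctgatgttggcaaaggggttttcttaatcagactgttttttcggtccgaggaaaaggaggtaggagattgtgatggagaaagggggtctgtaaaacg

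The promoters of Msx2 and Prrx1 each held TAATTA, at positions -187 and -173 from the start site, a motif found in 5.3% of 32817 mouse promoters of this length. The CCAAT box occurred in 37.4% of promoters, and in the Msx1 sequence it occurred at 2 places. Msx2 had 1 such box, while Lhx8 and Pax9 held neither motif. The Pax9 window surrounds the RefSeq start, which lies inside the span given for the gene above. Msx1 and Msx2 promoters had a GC content of 70.0% and 61.0%, and those of Lhx8, Pax9 and Prrx1 of 47.0%, 47.0% and 47.7%. The GC content did not sort with direction over the whole set, since it was 66.0% for Twist1 and 84.7% for Barx1. The median over all promoters was 52.7%. These matches describe the letters in the window and were not tested against binding.

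To order the genes by abundance, estimated reads were divided by the length of the merged exons and by the library total, giving reads per kilobase of exon per 1000000 reads (levels per length). In MSC, Msx1 at 56.1 ± 11.5 (SD, n = 3) and Pax9 at 54.2 ± 27.6 (SD, n = 3) led, with ranges over libraries that overlapped. Lhx8 at 31.4 ± 2.23 and Prrx2 at 31.4 ± 6.84 followed and overlapped each other, Lhx8 below every Pax9 value and Prrx2 above every Msx2 value. Msx2, Prrx1 and Twist1 came next, at 22.2 ± 1.33, 19.98 ± 7.11 and 19.5 ± 10.6, not separated by their ranges. Lhx6 and Barx1 were last, at 3.62 ± 1.01 and 3.31 ± 2.90 (SD, n = 3 throughout). The level per length of Msx1 was higher than that of 94.8% or more of the 22391 genes with a length in each library, whereas the percentile of Barx1 was 20.5 to 70.0.

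In TAC the order changed. Msx1 at 92.1 ± 13.1 and Msx2 at 64.6 ± 10.8 had the highest means, with Msx1 the higher of the pair in each library and ranges that did not overlap. Prrx2 at 61.02 ± 46.04 overlapped both, and in TAC replicate 3 it was the highest of the set, at 114.1 against 107.2 for Msx1. Pax9 at 20.5 ± 12.4 was place 4 in each library and was higher than Prrx1, at 10.6 ± 0.560, in every TAC library. Lhx8 at 10.2 ± 3.68 overlapped both Prrx1 and Twist1, the latter at 7.86 ± 2.20 and above Lhx6 in every library. Lhx6 and Barx1 were again last, at 2.69 ± 0.667 and 1.33 ± 0.672 (SD, n = 3 throughout). Between the groups, Msx2 was place 6 in every MSC library and place 2 or 3 in TAC, and Lhx8 was place 3 or 4 in MSC and between places 5 and 7 in TAC. Parts of this order depended on the length used. With the longest transcript, Prrx1 was above Pax9 in TAC replicates 1 and 2 (17.6 and 17.2 against 16.3 and 15.5), Msx1 led TAC replicate 3 in place of Prrx2, and Msx2 was place 5 or 6 in MSC.

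A share within a pair of related genes does not depend on how libraries were scaled. Msx1 made up 73.4%, 73.1% and 67.5% of the MSX pair per length in MSC, against 58.6%, 59.6% and 58.2% in TAC. The lowest MSC share was above the highest TAC share, with means of 71.3% ± 3.34 and 58.8% ± 0.748 (SD, n = 3). Prrx1 made up 32.7%, 29.8% and 53.9% of the PRRX pair in MSC and 21.8%, 24.2% and 8.94% in TAC. These groups did not overlap either, and replicate 3 was the extreme of each. Lhx8 made up 88.3%, 88.5% and 92.5% of the LHX pair in MSC and 81.1%, 73.9% and 80.8% in TAC, again without overlap. These shares restate the values of the members above as a balance within each pair, and are given as a description with no test.

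**Figure D3:**
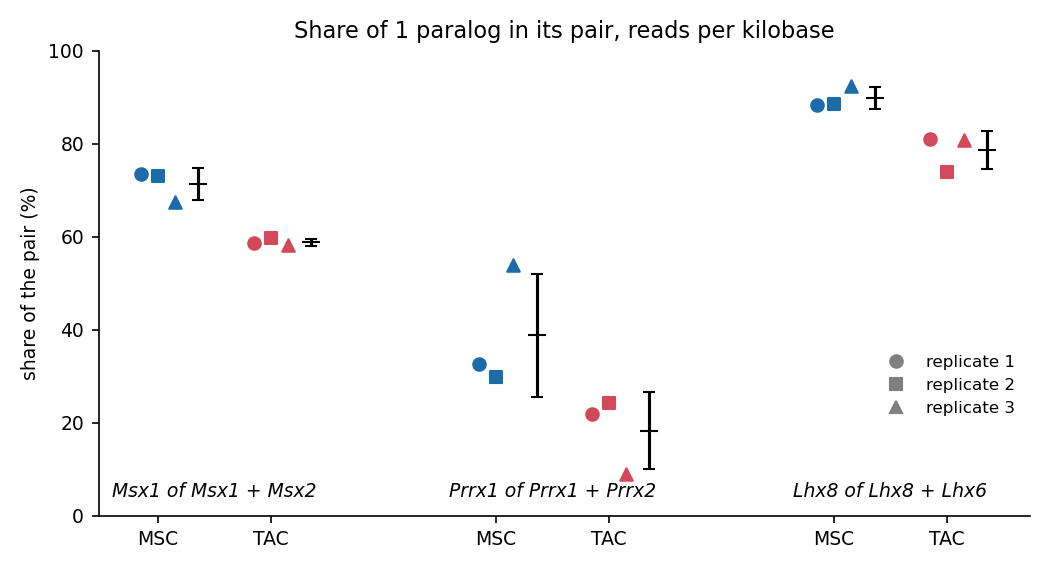
Share (vertical axis, %) of the first gene in each pair of related genes, from estimated reads per kilobase of merged exons, with a marker per replicate and the mean with its SD (n = 3). In all 3 pairs the MSC libraries lie above the TAC libraries.

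Transcripts that share genomic space could add reads, since the use of strand in counting is not given in the sources used here. Pax9 overlaps Slc25a21 on the opposite strand over 189 exonic bases, and Slc25a21 was 3.28 or less in every library, far under Pax9. The antisense gene Gm15524 overlaps the span of Pax9 without a shared exonic base and was 3.41 or less. Prrx1 holds 3 noncoding genes within its span that share no exonic base with it. Lhx6 overlaps a short RNA gene over 104 bases that was not analysed here. No overlapping gene was annotated for Msx1, Msx2, Lhx8, Prrx2, Twist1 or Barx1 in GENCODE M21.

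Markers of other cell types also differed between the captured pieces. Smooth muscle and pericyte markers summed to 863 to 1588 in MSC and 110 to 136 in TAC. Of the 8 tested, 5 passed the adjusted threshold, all higher in MSC (Tagln, Notch3, Myh11, Acta2 and Rgs5), beside 0.383% of all genes in that direction. With the replicate block 6 passed, beside 1.49% of all genes in either direction. Cspg4 and Mcam were now among them (adjusted p 0.0442 and 0.0456) and Acta2 was not (0.0701). Endothelial markers summed to 261 to 266 in MSC and 82.5 to 104 in TAC, with 0 of 8 past the adjusted threshold and 4 with an unadjusted p under 0.05, beside 6.43% of all genes in that direction. Under the block 2 passed (Vwf, 0.0323, and Cldn5, 0.0491), beside 1.49%. Both lists had lower sums in TAC, the direction of Pax9, Lhx8, Prrx1 and Twist1, although the endothelial receptor gene Kdr had means of 21.4 in MSC and 21.96 in TAC, and their part in those differences was not tested. Epithelial markers had the direction of Msx1 and Msx2. They summed to 31.1 to 33.6 in MSC and 55.9 to 104 in TAC. Groups did not overlap for 6 of 8 tested, all higher in TAC, beside 12.3% of all genes. After adjustment 0 passed, and before it 3 did (Epcam, Krt17 and Esrp1), beside 5.42%. These 3, which are among the 6, had MSC means of 0.720, 0.617 and 0.597, under the mean of 1 required for testing. They thus entered the test through the TAC libraries, where they were higher. In MSC replicate 3, the lowest library for Msx1 and Msx2, 7 of 9 epithelial markers had no read, among them Epcam and Cdh1, beside 43.1% of all genes. The most abundant epithelial markers, Krt14 and Krt5, were instead highest there among the MSC libraries, at 16.02 and 15.0035. Ameloblast transcripts, led by Amelx and Ambn, summed to 305 in MSC replicate 3 and to 2537 or more in every other library. Within replicates 1 and 2 their sums were higher in MSC (3692 and 3633) than in TAC (3278 and 3345), the other direction from Msx2. Since MSX2 is also known from dental epithelium, these values stand beside its result, and their part was not tested. Odontoblast markers, led by Dspp, summed to 532 in MSC replicate 3 and 3287 or more elsewhere, with 0 of 6 past either threshold. Osteoblast markers summed to 358 to 486 in MSC and 396 to 1919 in TAC, leukocyte markers to 80.7 to 203 and 44.8 to 130, and Schwann cell markers to 33.8 to 46.9 and 15.9 to 24.5, with 0 past the adjusted threshold. Skeletal muscle markers summed to 6.98 or less in every library. The general mesenchyme list had 0 of 10 past the adjusted threshold and a median log2 fold change of 0.00. Under the block 1 passed (Thy1, 0.0442), beside 1.49% of all genes. The sum of this list was lowest in MSC replicate 3, at 4289, against 10760 to 14505 elsewhere. Proliferation genes, which the TAC region is known for, passed the adjusted threshold in 1 of 10 cases, beside 0.039% of all genes higher in TAC. It was Cdk1, with a mean of 3.82 in MSC and 28.6 in TAC. The unadjusted threshold was passed by 10 of 10, all higher in TAC, beside 5.42% of all genes. Under the block Birc5 (0.0489) and Mki67 (0.0442) passed as well, beside 1.49%.

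Other transcription factors of tooth mesenchyme were examined as a list of 30 genes, of which 26 were tested. After adjustment 0 passed, and without it 4 were higher in TAC and 3 higher in MSC, beside 5.42% and 6.43% of all genes. Their groups did not overlap for 11 genes (42.3%), 6 higher in TAC and 5 higher in MSC, beside 24.5% of all genes, and their median log2 fold change was 0.09. Foxf2, a forkhead gene of oral mesenchyme, had the smallest p-value: it stood at 83.4, 76.0 and 79.4 in MSC, against 28.1, 26.1 and 16.9 in TAC, a log2 difference of -1.74 (SE 0.29, adjusted p 0.0764, and 0.0477 with the replicate block). Dlx5, a distal-less homeobox gene, was 86.4, 86.6 and 109 in MSC and 162, 159 and 196 in TAC, a change of 0.87 (SE 0.26, adjusted p 0.254). Its relative Dlx1 differed in the other direction, by -0.97 (SE 0.36, adjusted p 0.347), from a mean of 318 in MSC to 156 in TAC. Osr2, an odd-skipped gene that limits where teeth form, differed by -0.69 (SE 0.24, adjusted p 0.329), the T-box gene Tbx2 by 0.74 (SE 0.28, adjusted p 0.352), and Tfap2c, an AP-2 relative of Tfap2b, by 1.51 (SE 0.51, adjusted p 0.304). The DLX family thus had members on both sides of the comparison, as did the list.

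Partners of the patterning factors formed a list of 28 genes, with 26 tested, 0 past the adjusted threshold, and 1 higher in TAC and 4 higher in MSC without adjustment, beside 5.42% and 6.43% of all genes. Ldb1, the scaffold that LIM homeodomain factors such as LHX6 and LHX8 need, stood at 130, 128 and 159 in MSC, against 75.03, 76.7 and 95.4 in TAC. It had the direction of Lhx8, with a log2 difference of -0.75 (SE 0.26, adjusted p 0.318), as did Ssbp2, which stabilizes LDB1, at -1.28 (SE 0.35, adjusted p 0.195). The relatives of Ssbp2 in this list did not follow it: Ssbp3 differed by 0.35 (SE 0.30, adjusted p 0.704) and Ssbp4 by -0.03 (SE 0.25, adjusted p 0.984). Lmo1, a LIM-only protein that can occupy LDB1, had no read in MSC replicate 3, stood at 3.70 and 3.04 in the other MSC libraries and reached 9.98, 7.86 and 17.5 in TAC, a difference of 2.18 (SE 0.72, adjusted p 0.297), with 1.18 from replicates 1 and 2 and 4.198 from replicate 3. The corepressors Tle1 and Tle2, of the Groucho family through which homeodomain repressors act, differed by -1.32 (SE 0.28, adjusted p 0.127) and -0.95 (SE 0.36, adjusted p 0.355), and for Tle2 the library sets gave -1.29 (replicates 1 and 2) and -0.26 (replicate 3). Tcf3, an E protein partner of TWIST1, differed by 0.69 (SE 0.39, adjusted p 0.558) with groups that overlapped.

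Signals that act above and below these factors formed the last list, of 18 genes, all tested, with 0 past the adjusted threshold, and 2 higher in TAC and 3 higher in MSC without adjustment, beside the same shares of all genes. Fgf3, an FGF ligand of dental mesenchyme that depends on MSX1, had no read in MSC replicate 3, stood at 7.70 and 5.10 in the other MSC libraries and reached 43.3, 45.6 and 89.5 in TAC. Its fitted change was 3.92 (SE 0.82, adjusted p 0.123), with 2.64 from replicates 1 and 2 and 6.49 from replicate 3. Of the BMP ligands, Bmp7 differed by 0.60 (SE 0.26, adjusted p 0.426) and Bmp2 by -0.98 (SE 0.39, adjusted p 0.382). The receptor Fgfr2 was 107, 107 and 40.6 in MSC and 34.3, 37.8 and 27.1 in TAC, a change of -1.22 (SE 0.43, adjusted p 0.322), with -1.55 from replicates 1 and 2 and -0.57 from replicate 3. Fst, which binds activin and BMP ligands, differed by -1.90 (SE 0.71, adjusted p 0.352), and the WNT ligand gene Wnt10a by 1.18 (SE 0.36, adjusted p 0.254). In this list too the groups did not overlap for genes in both directions, 3 higher in TAC and 5 higher in MSC, beside 12.3% and 12.2% of all genes.

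**Figure D4:**
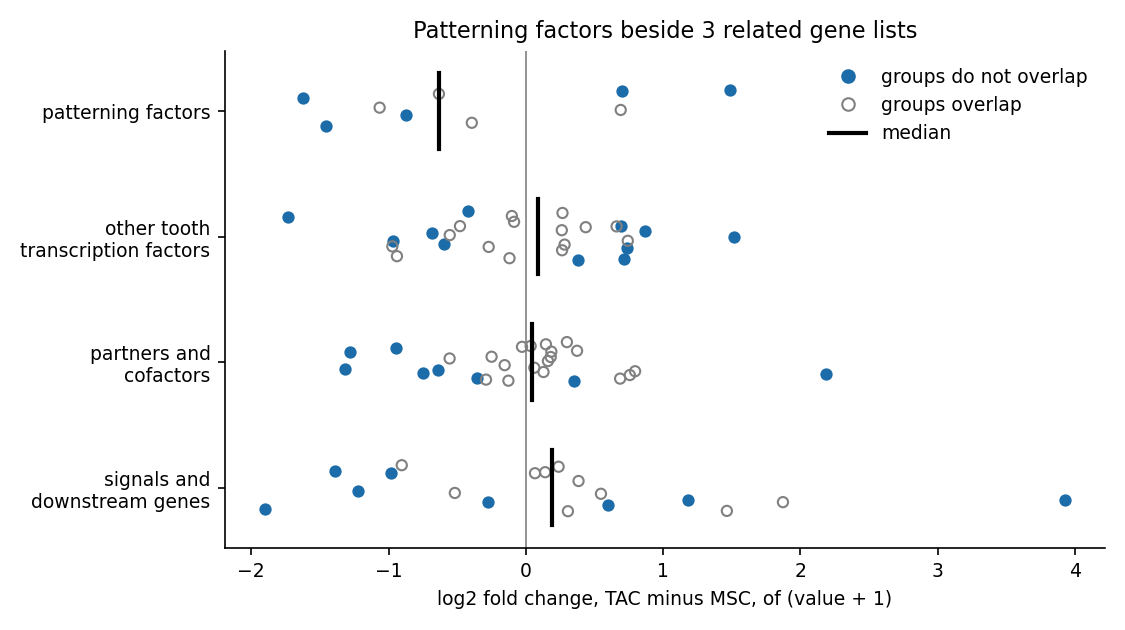
Log2 fold change of (value + 1), TAC minus MSC (horizontal axis), for the patterning genes and for 3 related lists; filled points are genes whose groups do not overlap, open points are genes whose groups overlap, and bars are medians. Each list has filled points on both sides of 0, and Fgf3, at 3.92, lies farthest from it.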

How the data were processed

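Laser-captured incisor tissue was sequenced in 3 MSC and 3 TAC samples, from 3 mice per group by the study's methods. Per the methods and the labels, trimmed reads were aligned to mm10 with TopHat2 2.0.8 and RPKM normalization followed; the labels also list CASAVA 1.8.2 and Partek, without their roles, and which tool counted reads is not given in the sources used here. The authors deposited a signal per gene whose lowest value in each library was shared by genes of any length, so a read is worth the same in every gene and the values are not RPKM. Estimated reads were taken as the value divided by that lowest value, minus 1. Of values under 50 reads, 62.5% to 72.6% per library came out whole within 0.02 reads, so no count model was the main test. Each of the 23718 genes reached at least 10 reads in some library.

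Groups came from the sample titles. The fit used limma 3.58.1 in R 4.3.3 with a variance trend on log2(value + 1) for 15391 genes whose mean reached 1, two-sided, with Benjamini-Hochberg adjustment over all of them. The planned test assumed normalized values and suits this signal. A pseudocount of 1 understates changes of low genes. The script was tested on simulated data. The members, lists and rules for naming genes were chosen with earlier results of these data known: all members were named, and of the related lists the genes past the adjusted threshold or else up to 6 per pathway list with the smallest p-values; of marker lists, the most abundant genes. Epcam, Cdh1, Krt17, Esrp1, Kdr, Ssbp3, Ssbp4 and the marker genes whose call the block changed were named after their values were seen. Coordinates are 1-based on mm10; start and end matched GENCODE M21 for all 9 genes once the deposited end was lowered by 1.

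Across genes, deviations from the group means correlated at 0.477, 0.465 and 0.517 for same-numbered MSC and TAC samples, so the numbers were taken to pair the samples. MSC replicate 1 with TAC replicate 2 gave 0.462, so the shared part is that of replicate 3 against the others. Replicates 1 and 2 of a group were close, with correlations of 0.980 in MSC and 0.988 in TAC, against 0.660 and 0.776 for replicates 1 and 3. They were checked for being 1 library deposited in duplicate. Estimated reads differed by more than counting noise (mean chi-square per gene 10.4 in MSC and 8.52 in TAC), so they were kept as separate samples. This check covers a duplicate deposit only and cannot show that the 2 libraries came from separate animals. Intervals cover the spread between these libraries, and the read floor covers counting error only. Alternatives were pseudocounts of 0.5 and 5, other filters, scalings and variance models, the replicate block, replicate 3 as a batch term, replicates 1 and 2 only, limma voom, and each library left out; gene length by the longest transcript was added after seeing the data.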

Additional observations from a re-analysis of the deposited data

How the results depend on the processing

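The count over all genes, 65 past the adjusted threshold, was 43 with a pseudocount of 0.5, 114 with quantile normalization, 29 without the variance trend, 229 with the replicate block, 6796 with replicates 1 and 2 only, 1814 with replicate 3 as a batch term and 6 with limma voom. Leaving out single libraries gave 0 to 292, with 0 when a library of replicates 1 or 2 was left out (limma, 1028 to 1367 genes at an unadjusted p under 0.05) and 292 without MSC replicate 3. Of the patterning genes, 0 passed as reported, 1 with the replicate block, 8 with replicates 1 and 2 only, 4 with replicate 3 as a batch term, and 0 to 2 with single libraries left out; the 2 came without MSC replicate 3. The replicate block changed the call of Pax9 alone among them and of Foxf2 alone among the 3 related lists. Changes in marker lists stand with those lists. Msx1, Msx2, Pax9, Lhx8, Prrx1, Lhx6 and Twist1 kept their direction in each of the 19 alternatives fitted on several libraries. Barx1 reversed to 2.76 with limma voom, and Prrx2 to -0.077 with replicates 1 and 2 only. In replicate 3 alone Barx1 was 0.88 and Lhx6 0.43, against the direction reported; the cause was not tested. With the length of the longest transcript the Msx1 share was 74.9% in MSC and 63.1% in TAC. Barx1 had no read in MSC replicate 3, a deeper library than MSC replicates 1 and 2.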

Other observations

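Noncoding genes inside the span of Prrx1 were near 0 in replicate 3 of both groups and present in every other library. Of all genes listed, 43.1% had no read in MSC replicate 3 and 28.3% in TAC replicate 3, so such absence was common there. Gm37644, on the strand of Prrx1, stood at 11.7 and 17.4 in MSC replicates 1 and 2, above its TAC values of 7.47 and 8.99, and had no read in replicate 3 of either group. Gm20471, on the opposite strand, stood at 4.69 and 5.74 in the same MSC libraries, above 1.45 and 2.21 in TAC, again with no read in replicate 3. Gm26523 stood at 4.69 and 3.30 in MSC and at 2.54 and 4.05 in TAC, with no read in MSC replicate 3 and a value of 0.0152 in TAC replicate 3. Prrx1 itself was present at 50.9 or more in all 6 libraries.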
